A study of Mus musculus with 6 samples.

Results

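The 8 genes described here are the eosinophil granule genes Epx, Prg2, Prg3, Ear1, Ear2 and Ear6 and the eosinophil surface genes Il5ra and Siglecf, out of 55487 genes in the table of a mouse RNA-seq study. They were found by symbol, and each of the 8 matched 1 gene. The study sequenced total RNA in 6 libraries, 3 per group and all labelled as 1 batch, from marrow cells taken for Kit, a receptor of stem and progenitor cells. Cells of both groups were infected with a lentivirus that overexpresses MLLT3, an elongation factor subunit with a histone-reading YEATS domain. The WT group received the wild type protein and the DM group the protein with the substitutions K63E and K67E. After sorting, culture of both groups ran for 8 days in methylcellulose, and the cells were then harvested. The medium held gentamycin, 10 ng/mL of Flt3L, with further cytokines at 20 ng/mL each, EPO, SCF, GM-CSF, IL-3, IL-6 and IL-11 among them, and with 4-hydroxytamoxifen at 200 nM for deletion of the endogenous gene, which the controls therefore share. The strain, the age of the mice, the Cre driver and the marker used to sort infected cells are not given in the sources used here. Nothing in the labels says whether the 3 replicates of a group came from separate animals or cultures, so p-values cover the spread between these samples, which may be technical.

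Eosinophils are granulocytes that arise from myeloid progenitors in the marrow. Their large granules hold basic proteins: eosinophil peroxidase (Epx), which makes hypohalous acids from hydrogen peroxide, the major basic proteins (Prg2 and its paralog Prg3), and ribonucleases of the Ear family. IL-5, acting through the receptor subunit encoded by Il5ra, drives their late maturation and survival, and Siglecf encodes a sialic acid-binding receptor used to identify mouse eosinophils. The transcription factors GATA1, C/EBP alpha, C/EBP epsilon and PU.1 are known regulators of the lineage. IL-5 is not among the cytokines that the labels name for these cultures.

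The deposited values are regularized log (rlog) values, which are on the log2 scale, adjusted for library size and pulled toward each gene's mean where reads are few. They hold no counts, so the depth is unknown. They are not divided by gene length, so they do not show which of several genes has more transcripts. Sums over genes, and shares of such sums, weigh each gene by its value and so depend on gene length too. Library medians lay between 8.03 and 8.11 over the 18766 genes tested, those whose mean reached 3. The markers Kit (14.29 to 14.9) and Ptprc (13.63 to 14) were high in all 6 libraries. Kit is also in the list of mast cell markers read below, so its level does not single out progenitors. Cd34 ranged from 12.02 to 12.64, and Flt3 was low (4.23 to 4.68). Flt3, a receptor of early progenitors, was called lower in DM with the granule genes (-0.3, limma adjusted p 0.0494, groups without overlap). It lost the call in 10 of 13 alternatives, including without WT replicate 1 (-0.23, 0.163), WT replicate 3 (-0.25, 0.101) or any 1 DM library (-0.29 to -0.3, 0.104 to 0.133). Its part in the falls of the granule genes was not tested. All 8 eosinophil genes passed the filter on the mean.

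Of the 8 genes, 3 fell in DM by limma with Benjamini-Hochberg adjustment over all genes tested, and 5 did not pass the threshold of 0.05. These 3 were the peroxidase and both major basic proteins. Over all genes tested, 13.9% passed, with 4.71% lower in DM and 9.2% higher. The receptor Il5ra, the surface gene Siglecf and the 3 ribonucleases were the members not called. Within bulk RNA, fewer eosinophil-lineage cells and less of these transcripts per cell cannot be told apart.

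**Figure D1:**
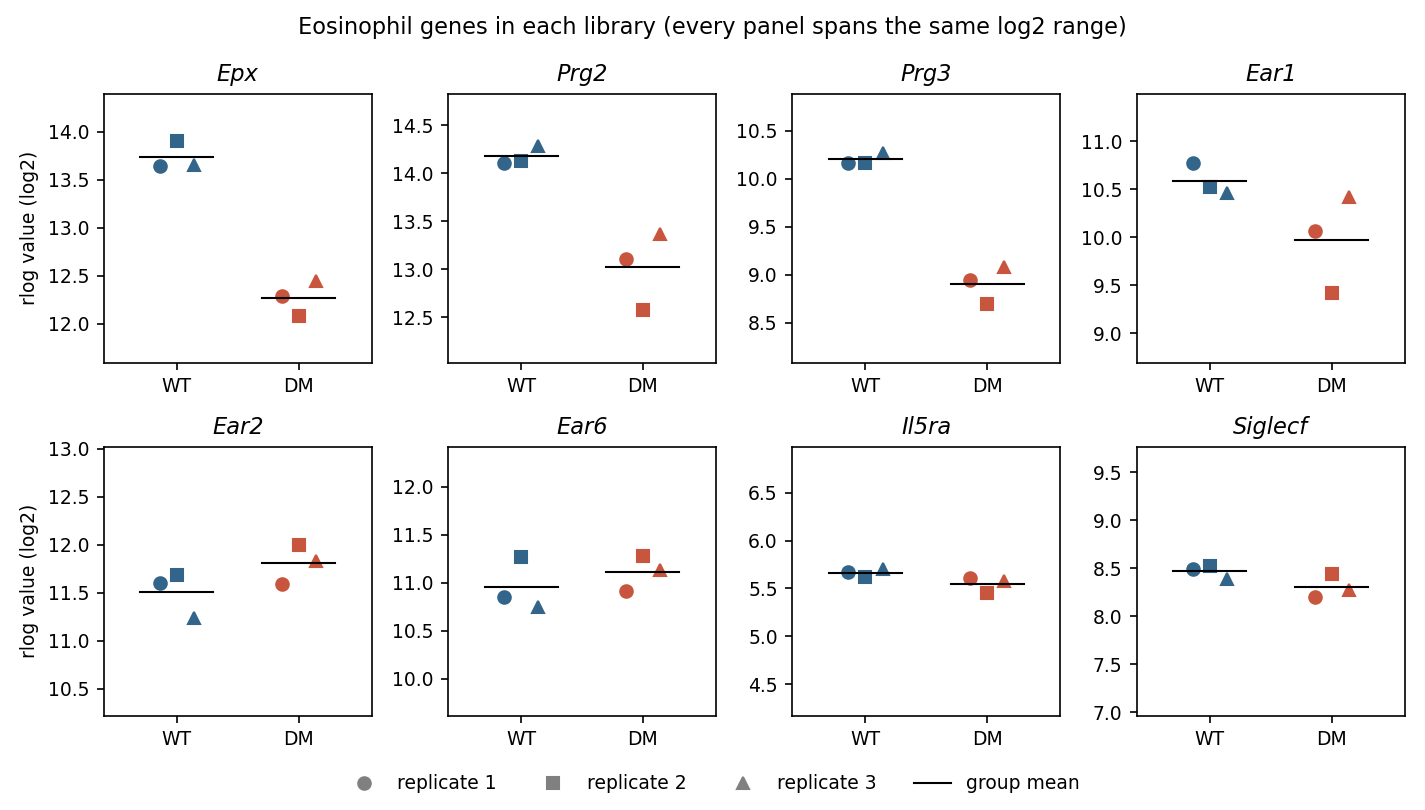
The rlog value (log2, vertical axis) of each eosinophil gene in the 3 WT and 3 DM libraries, with symbols for the replicates and a bar for the group mean; all panels span the same range. Epx, Prg2, Prg3, Ear1 and Il5ra lie wholly lower in DM, as do 14.3% of all genes tested, with gaps of only 0.0387 for Ear1 and 0.0094 for Il5ra. Ear2, Ear6 and Siglecf overlap between the groups, and DM replicate 2 is the lowest library for Ear1.

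Epx (ENSMUSG00000052234.2) lies on chromosome 11, 87864000 to 87875536, minus strand. These and all other gene coordinates are from GENCODE M21 on GRCm38, which is the mm10 build named in the submitters' processing notes. Epx had rlog values of 13.64, 13.91 and 13.66 in WT, against 12.29, 12.08 and 12.45 in DM. Every DM library was below every WT library, with a gap of 1.19 between the groups. The means were 13.74 ± 0.151 (SD, n = 3) and 12.27 ± 0.184, which is -1.46 in log2 units (SE 0.109, limma adjusted p 0.000118). Taken back to the linear scale, DM stood at 36.25% of WT. Ranked by change, Epx was number 24 from the lowest of the 18766 genes.

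Prg2 and Prg3 are neighbouring genes on the plus strand of chromosome 2, with starts 7.8 kb apart. Prg2 (ENSMUSG00000027073.5; 84980461 to 84983632) encodes the main major basic protein, a cationic toxin of the granule core. Its rlog values were 14.11, 14.13 and 14.28 in WT, against 13.11, 12.57 and 13.37 in DM. The WT libraries lay close together and the DM libraries spread more widely, without overlap. The change of Prg2 was -1.16 (SE 0.168, limma adjusted p 0.00381), and it was -0.94 without DM replicate 2, the lowest library. Prg3 (ENSMUSG00000027072.13; 84988215 to 84993886) encodes the major basic protein homolog. Its rlog values were 10.16, 10.16 and 10.27 in WT, against 8.94, 8.69 and 9.08 in DM, again without overlap. The change of Prg3 was -1.29 (SE 0.0967, limma adjusted p 0.000118). On the linear scale, DM reached 44.79% of WT for Prg2 and 40.8% for Prg3.

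The paralogs can be read apart. Their coding sequences were 62.3% identical in a global alignment, and no window of 50 bases in the transcript of Epx, Prg2 or Prg3 occurred in a transcript of another gene. The difference Prg2 minus Prg3 within each library was 3.96, 3.97 and 4.01 in WT, against 4.17, 3.88 and 4.29 in DM. The mean difference rose by 0.13, less than its SD of 0.212 among the DM libraries (two-sided exact permutation p 0.4, adjusted over 4 gene pairs 0.4). It was 0.25 without DM replicate 2 (exact permutation p 0.1, the smallest possible), 0.04 without DM replicate 3 (0.8) and 0.07 after quantile normalization (0.7). This test did not tell the falls of the 2 genes apart.

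The stretches of 250 bases before the start of Epx and Prg3 are shown because both genes fell, from RefSeq on GRCm38.p6; 7 of the 8 genes matched that table. The letters searched on both strands were the forms bound by GATA factors (AGATAA or AGATAG, with TGATAA or else TGATAG added after the data were seen), the C/EBP letters TTGCNNAA and the letters GAGGAA of PU.1 and other ETS factors. No 2 of the matches reported here overlapped. Capitals mark a match. Epx is at chr11:87875537-87875786, minus strand, and Prg3 at chr2:84987965-84988214, plus strand, both written 5′ to 3′ along the gene.
Epx: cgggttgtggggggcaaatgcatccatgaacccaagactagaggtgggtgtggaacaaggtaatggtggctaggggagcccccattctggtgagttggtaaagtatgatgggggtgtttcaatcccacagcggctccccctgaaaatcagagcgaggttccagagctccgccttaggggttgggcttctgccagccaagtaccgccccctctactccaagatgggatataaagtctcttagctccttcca
Prg3: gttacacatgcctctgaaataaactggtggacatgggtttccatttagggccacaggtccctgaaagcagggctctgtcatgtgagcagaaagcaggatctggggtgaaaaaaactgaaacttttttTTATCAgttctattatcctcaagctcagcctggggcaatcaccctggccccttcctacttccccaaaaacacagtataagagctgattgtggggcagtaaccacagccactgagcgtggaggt
Prg3 held TGATAA on the strand opposite the gene, at -123 to -118 from the start, and the letters searched were not in the window of Epx. Among 32851 promoters of the same length, 26.5% held at least 1 of the 4 GATA forms, 9.56% held TTGCNNAA and 23.3% held GAGGAA. Il5ra held AGATAA at -74 to -69, and Siglecf held GAGGAA on the opposite strand at -65 to -60.

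None of the 3 ribonucleases, which degrade RNA and have antiviral and chemoattractant activity, passed the threshold. Ear1 (ENSMUSG00000072601.4; chromosome 14, 43818765 to 43875517, minus strand) had rlog values of 10.77, 10.52 and 10.46 in WT, against 10.06, 9.41 and 10.42 in DM. Every DM library was below every WT library, but by a gap of 0.0387, and DM replicate 3 was close to the WT libraries. The difference was -0.62 (SE 0.207, 95% interval -1.08 to -0.16, limma adjusted p 0.0783). It was -0.34 (adjusted p 0.153) without DM replicate 2, and -0.85 (adjusted p 0.0294) without DM replicate 3, where it passed the threshold. Among the alternatives it also passed with a mean of at least 5 (0.0473), with library weights (0.019) and with a block for the replicate number (0.0358). Over all alternatives the adjusted p ran from 0.019 to 0.201.

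Ear2 (ENSMUSG00000072596.4; chromosome 14, 44102654 to 44103534, plus strand) had rlog values of 11.6, 11.69 and 11.24 in WT, against 11.59, 12 and 11.83 in DM. The groups overlapped, with a difference of 0.29 (SE 0.13, limma adjusted p 0.169) and a 95% interval from 0.0035 to 0.59. It was 0.16 without WT replicate 3, 0.19 after quantile normalization and 0.4 without DM replicate 1. Ear6 (ENSMUSG00000062148.6; chromosome 14, 51853699 to 51854643, plus strand) had rlog values of 10.85, 11.27 and 10.75 in WT, against 10.91, 11.28 and 11.13 in DM. The groups again overlapped, with a difference of 0.15 (SE 0.138, limma adjusted p 0.492) and an interval from -0.16 to 0.46. The value for Ear6 was 0.1, 0.31 or 0.05 without WT replicate 1, 2 or 3, and 0.25 or 0.06 without DM replicate 1 or 2. Quantile normalization gave 0.04. A fall as large as that of Epx lies outside both intervals.

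The 3 ribonuclease genes are near copies of each other, which limits what can be read from each alone. Coding sequences of Ear1 and Ear2 were 95.1% identical, with 20 mismatches over 471 aligned bases, while Ear6 was 87.4% identical to Ear1 and 87.7% to Ear2. The 90 coding bases (81 to 170) where Ear1 and Ear2 differ most are shown, because they are where reads can tell the copies apart; they are from GENCODE M21 transcripts, and capitals mark each position at which the 3 genes are not all the same.
Ear1: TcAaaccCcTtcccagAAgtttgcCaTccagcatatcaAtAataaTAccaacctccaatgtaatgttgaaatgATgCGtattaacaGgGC
Ear2: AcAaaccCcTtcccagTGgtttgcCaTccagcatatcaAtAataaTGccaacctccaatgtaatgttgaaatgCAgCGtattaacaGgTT
Ear6: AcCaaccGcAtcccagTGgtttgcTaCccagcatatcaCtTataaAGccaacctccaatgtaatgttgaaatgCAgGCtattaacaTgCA
In this stretch, Ear1 differed from Ear2 at 8 bases and from Ear6 at 19. Of all windows of 50 bases, 57.4% in the Ear1 transcript and 41.5% in the Ear2 transcript occurred in another gene, against 1.4% for Ear6. The other genes were members of the family and the pseudogenes Ear-ps9 and Ear-ps2. Ear-ps9, which the annotation places within the span of Ear1 on the same strand, had rlog values from 3.17 to 3.31. Ear10, whose coding sequence was 97% identical to that of Ear2, had values of -0.59 to -0.57, and Ear-ps2 of -0.67 to -0.66, below the filter. How reads that fit several copies were counted is not given in the sources used here, so the values of Ear1 and Ear2 are uncertain.

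Similarity extended upstream. The 250 bases before the starts of Ear1 and Ear2 were 97.6% identical, with 2 mismatches and 4 gap positions, and both held TTGCNNAA, in capitals below, at -92 to -85 and at -90 to -83. They are shown because they are nearly the same in 2 genes whose means moved in opposite directions, Ear1 lower and Ear2 higher in DM. Neither gene was called, and a link between these letters and the means was not tested. Ear1 is at chr14:43819640-43819889, minus strand, and Ear2 at chr14:44102404-44102653, plus strand, both before the start in RefSeq on GRCm38.p6; the longer GENCODE span of Ear1 covers its window.
Ear1: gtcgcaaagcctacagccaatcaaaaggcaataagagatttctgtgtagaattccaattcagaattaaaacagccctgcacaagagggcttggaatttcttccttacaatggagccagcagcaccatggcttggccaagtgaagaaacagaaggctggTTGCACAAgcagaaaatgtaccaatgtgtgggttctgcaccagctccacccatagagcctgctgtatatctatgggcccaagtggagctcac
Ear2: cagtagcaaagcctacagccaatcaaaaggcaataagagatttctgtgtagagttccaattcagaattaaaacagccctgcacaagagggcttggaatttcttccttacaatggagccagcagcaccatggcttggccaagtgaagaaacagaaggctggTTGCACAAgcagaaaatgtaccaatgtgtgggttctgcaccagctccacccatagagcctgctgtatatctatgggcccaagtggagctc
The difference Ear1 minus Ear2 within each library was -0.83, -1.17 and -0.78 in WT, against -1.53, -2.58 and -1.4 in DM. This pair was singled out after its values were seen, so no test is given. The log2 of the summed linear values of Ear1 and Ear2 was 12.24, 12.22 and 11.9 in WT, against 12.02, 12.22 and 12.29 in DM. Those sums overlapped between the groups, with means of 12.12 ± 0.19 (SD, n = 3) and 12.18 ± 0.139.

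Il5ra (ENSMUSG00000005364.11; chromosome 6, 106710357 to 106749037, minus strand), the IL-5 receptor alpha subunit, had low rlog values of 5.67, 5.62 and 5.7 in WT, against 5.61, 5.45 and 5.58 in DM. The groups did not overlap, by a gap of 0.0094, and 35.8% of all tested genes likewise had groups that did not overlap. The difference was -0.12 (SE 0.0668, 95% interval -0.27 to 0.03, limma adjusted p 0.272), with -0.06 after quantile normalization and -0.07 when DM replicate 2 was left out. Because values of genes with few reads are pulled toward their mean, a difference in Il5ra can be understated more than one in Epx. Siglecf (ENSMUSG00000039013.16; chromosome 7, 43351341 to 43359531, plus strand) had rlog values of 8.49, 8.53 and 8.39 in WT, against 8.2, 8.45 and 8.27 in DM. The highest DM library lay above the lowest WT library. The difference was -0.17 (SE 0.0817, 95% interval -0.35 to 0.02, limma adjusted p 0.211).

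Granule and surface genes were also compared directly, as differences within each library. Epx minus Il5ra was 7.98, 8.29 and 7.96 in WT, against 6.68, 6.64 and 6.87 in DM, so every DM library lay below every WT library. The mean of this difference changed by -1.35. Epx minus Siglecf was 5.15, 5.38 and 5.27 in WT, against 4.09, 3.64 and 4.18 in DM, a change of -1.3, also without overlap. For both pairs the two-sided exact permutation p was 0.1, the smallest that 3 against 3 allows, and 0.133 adjusted over the 4 pairs, so these comparisons could not reach 0.05. Pulling of low values toward the mean differs between genes of different level and enters these differences.

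Libraries of the DM group did not order alike for all members. DM replicate 2 was the lowest of the 6 libraries for 5 of the 8 genes (Epx, Prg2, Prg3, Ear1 and Il5ra) and the highest for 2 (Ear2 and Ear6). DM replicate 3 had the highest DM value for Epx, Prg2, Prg3 and Ear1. Epx, Prg2 and Prg3 passed the threshold with each library left out in turn, with changes from -1.55 to -1.37, from -1.34 to -0.94 and from -1.38 to -1.19.

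Epx sits in a cluster of haem peroxidase genes with Mpo, the neutrophil myeloperoxidase, and Lpo, lactoperoxidase. Mpo (ENSMUSG00000009350.13) had rlog values of 15.3, 15.07 and 14.09 in WT, against 11.1, 9.57 and 11.1 in DM, with no overlap. Its change of -4.23 (limma adjusted p 0.000444) exceeded that of Epx in size. Epx minus Mpo was -1.66, -1.15 and -0.43 in WT, against 1.19, 2.52 and 1.35 in DM, a change of 2.76 (two-sided exact permutation p 0.1, the smallest possible, and 0.133 adjusted over the 4 pairs). The coding sequences of Epx and Mpo were 70% identical. Lpo was near the filter, at 3.54, 3.55 and 3.82 in WT, against 3.5, 3.47 and 3.51 in DM (difference -0.14, limma adjusted p 0.208). Of the 4 peroxidase genes tested, Epx and Mpo fell and Lpo and Pxdn were not called; their median was -0.84, against 0.0053 over all genes tested.

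Neighbouring genes were read to see whether the fall extended along the chromosome. Over all genes tested, 4.71% were called lower in DM. Of the 5 tested genes on each side of Epx, with starts from -103.5 to 204.3 kb relative to that of Epx, 3 fell and 7 were not called. Those 3 were Mpo, Gm11505, a noncoding gene on the strand opposite Mpo (-1.04, limma adjusted p 0.0043), and Tspoap1 (-0.57, 0.0437). Because the use of strand in counting is not given, reads of Gm11505 and Mpo cannot be told apart. Tspoap1 lost its call without WT replicate 1 (-0.48, adjusted p 0.14), WT replicate 2 (-0.55, 0.0758), DM replicate 1 (-0.61, 0.0684) or DM replicate 2 (-0.38, 0.11), and in 7 of 14 alternatives in all. Mks1, the closest gene to Epx, had a difference of 0.11 (0.369), and the 5 genes on the far side of Epx lay between -0.15 for Srsf1 and 0.19 for Vezf1, with Dynll2 at 0.15, Gm11508 at -0.06 and Gm15892 at -0.09.

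Beside Prg2 and Prg3, 3 of 10 neighbours were called, in both directions, against 13.9% of all genes tested. The starts of these neighbours ranged from -181.6 to 2413 kb relative to that of Prg2, with Olfr1033 at 1040 kb and Gm1826 the farthest. Slc43a1 fell (-0.46, limma adjusted p 0.00706), as did P2rx3 (-0.25, 0.021), while Ube2l6 rose (0.34, 0.0132). Slc43a3, the nearest gene before Prg2, stood at 11.12 in both groups (-0.0065, 0.96). The other 6 were Timm10 (0.16), Rtn4rl2 (0.07), Ssrp1 (-0.2), Aplnr (-0.09), Olfr1033 (0.05) and Gm1826 (0.0084). P2rx3 lost its call without WT replicate 1 (-0.2, adjusted p 0.0946) or any 1 DM library (-0.24 to -0.25, 0.0645 to 0.0704) and after quantile normalization. Ube2l6 lost it without WT replicate 1 (0.31, 0.0629), DM replicate 2 (0.33, 0.0535) or DM replicate 3 (0.32, 0.0515). The falls of Slc43a1 and P2rx3 were smaller than those of Prg2 and Prg3, and this difference in size was not tested.

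**Figure D2:**
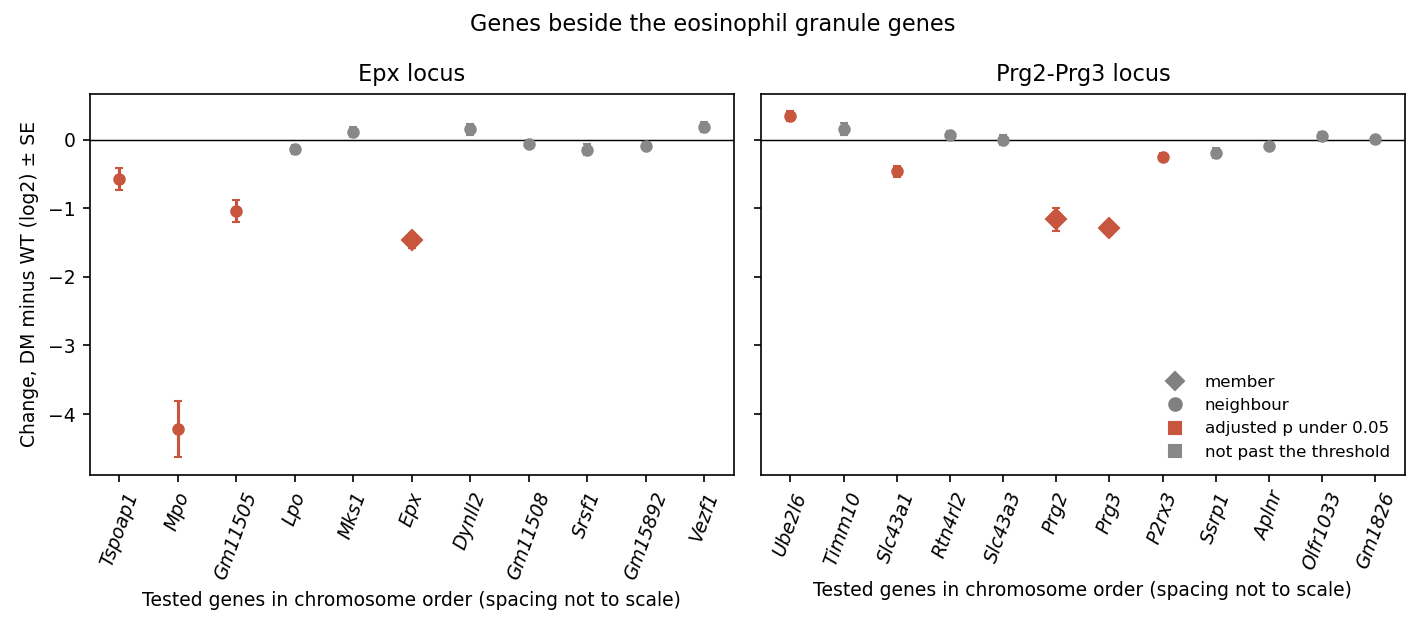
Change between DM and WT (log2, vertical axis, with SE bars) for the eosinophil granule genes (diamonds) and the 5 tested genes on each side (circles), in chromosome order; red marks limma adjusted p under 0.05. In the left panel Mpo (-4.23) is the lowest, followed by Epx (-1.46), Gm11505 (-1.04) and Tspoap1 (-0.57), all called. Prg3 (-1.29) and Prg2 (-1.16) are the lowest in the right panel.

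Among 13 transcription regulators of the eosinophil lineage, 2 fell, 3 rose and 8 were not called, with a median of 0.1. The shares over all genes tested were 4.71% lower and 9.2% higher, with a median of 0.0053. Cebpe, which encodes C/EBP epsilon, a factor needed for late granulocyte maturation and for granule genes, had rlog values of 10.47, 10.64 and 10.6 in WT, against 8.51, 8.81 and 9.17 in DM. Every DM library lay below every WT library, by a change in the mean of -1.74 (SE 0.139, limma adjusted p 0.000157), with 29.92% of the WT level left on the linear scale. Gfi1, a repressor that supports granulocyte development, had values of 10.51, 10.52 and 10.12 in WT, against 8.83, 8.6 and 9.1 in DM, and changed by -1.54 (SE 0.139, limma adjusted p 0.000306). Cebpe and Gfi1 passed the threshold in all 14 alternatives.

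Regulators that rose were Irf8, which directs monocyte development (0.56, limma adjusted p 0.016), Cebpb, an inflammatory and macrophage factor (0.46, 0.0309), and Id2, an inhibitor of E proteins (0.36, 0.0225). Irf8 lost its call without WT replicate 1 (0.5, adjusted p 0.0627), DM replicate 2 (0.51, 0.0632) or DM replicate 3 (0.54, 0.0608). Cebpb lost it without WT replicate 1 (0.37, 0.121), WT replicate 3 (0.45, 0.0627), DM replicate 2 (0.41, 0.113) or DM replicate 3 (0.4, 0.119), and after quantile normalization. Id2 lost it after quantile normalization (0.19, 0.106) and without any 1 library other than WT replicate 2 (0.29 to 0.39, 0.0563 to 0.0806). Gata1, which is required for the lineage, had values of 10.23, 10.05 and 10.31 in WT, against 10.53, 10.16 and 10.19 in DM (0.1, 95% interval -0.14 to 0.34, adjusted p 0.572). Gata2 (-0.02, interval -0.29 to 0.25) and Cebpa (-0.16, interval -0.5 to 0.17) were not called either. The list held 2 called genes without WT replicate 1, DM replicate 2 or DM replicate 3, and 3 without WT replicate 3.

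Receptors and signal transducers of the IL-5, IL-3 and GM-CSF pathway showed 6 of 21 genes higher, none lower and 15 not called, with a median of 0.12. All genes tested had 9.2% called higher, 4.71% called lower and a median of 0.0053. Il5ra works with a common beta chain encoded by Csf2rb, whose rlog values were 16.42, 16.47 and 16.3 in WT, against 16.84, 16.61 and 16.7 in DM (0.32, limma adjusted p 0.0817). All DM values of Csf2rb were above the WT values, without passing the threshold. Socs3, a feedback inhibitor of cytokine receptors, rose from 11.09, 11.38 and 11.11 to 11.76, 11.89 and 11.9 (0.65, limma adjusted p 0.00307). Bcl2l1, a survival gene, rose by 0.46 (0.00636) and the kinase gene Syk by 0.45 (0.0162). Csf2ra, the GM-CSF receptor alpha subunit, rose by 0.5 (0.0409). Stat5a (0.07) and Stat5b (0.11), the transcription factors downstream of the receptor, were not called.

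Socs3 and Bcl2l1 kept their calls in all 14 alternatives. Syk lost its call without WT replicate 1 (0.385, limma adjusted p 0.0776) or DM replicate 2 (0.41, 0.073). Csf2ra lost it without WT replicate 1 (0.42, 0.14), WT replicate 3 (0.43, 0.0979), DM replicate 2 (0.42, 0.142) or DM replicate 3 (0.46, 0.132). The pathway held 2 called genes without WT replicate 1 or DM replicate 2 and 3 without DM replicate 3.

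The list of other RNase A family genes with their inhibitor named 16 genes, of which 9 had a value under that symbol and 5 were tested. Of the 5, 2 were called, both higher, against 9.2% of all genes tested. Rnh1, the cytosolic inhibitor that binds these ribonucleases, rose from 12.89, 13.14 and 12.82 to 13.43, 13.73 and 13.44, with no overlap (0.59, limma adjusted p 0.00919). Rnase4, on the same chromosome as the Ear genes, rose by 0.56 (0.0337), but lost its call without WT replicate 1 (0.54, 0.0968), WT replicate 3 (0.44, 0.0827), DM replicate 2 (0.45, 0.118) or DM replicate 3 (0.53, 0.109). The list held 1 called gene without WT replicate 1, WT replicate 3 or DM replicate 2. Rnase2a, another eosinophil-associated ribonuclease, ranged from 5.8 to 6.3 in WT and from 5.52 to 6.06 in DM (-0.17, 0.498).

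Of 10 other eosinophil surface and effector genes, 3 rose, none fell, 6 were not called and Ptgdr2 was below the filter. Their median was 0.19, against 0.0053 over all genes tested, of which 9.2% were called higher. The 3 that rose are known from other myeloid cells too: Adgre1, which encodes a macrophage surface marker (0.63, limma adjusted p 0.00423), Ltc4s, the leukotriene C4 synthase (0.46, 0.00781), and Cd63, a granule membrane protein (0.43, 0.0222). Cd63 lost its call without WT replicate 1 (0.46, 0.0632), WT replicate 3 (0.4, 0.0591), DM replicate 1 (0.36, 0.0772) or DM replicate 2 (0.39, 0.0918), and after quantile normalization. Ccr3, the eotaxin receptor of mature eosinophils, was low, at 4.46, 4.45 and 4.59 in WT, against 4.35, 4.3 and 4.52 in DM (-0.11, 0.305). Alox15, a lipoxygenase of eosinophils, had values of 8.05, 8.5 and 8.57 in WT, against 8, 7.57 and 8.54 in DM (-0.34, 0.324), so the groups overlapped.

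**Figure D3:**
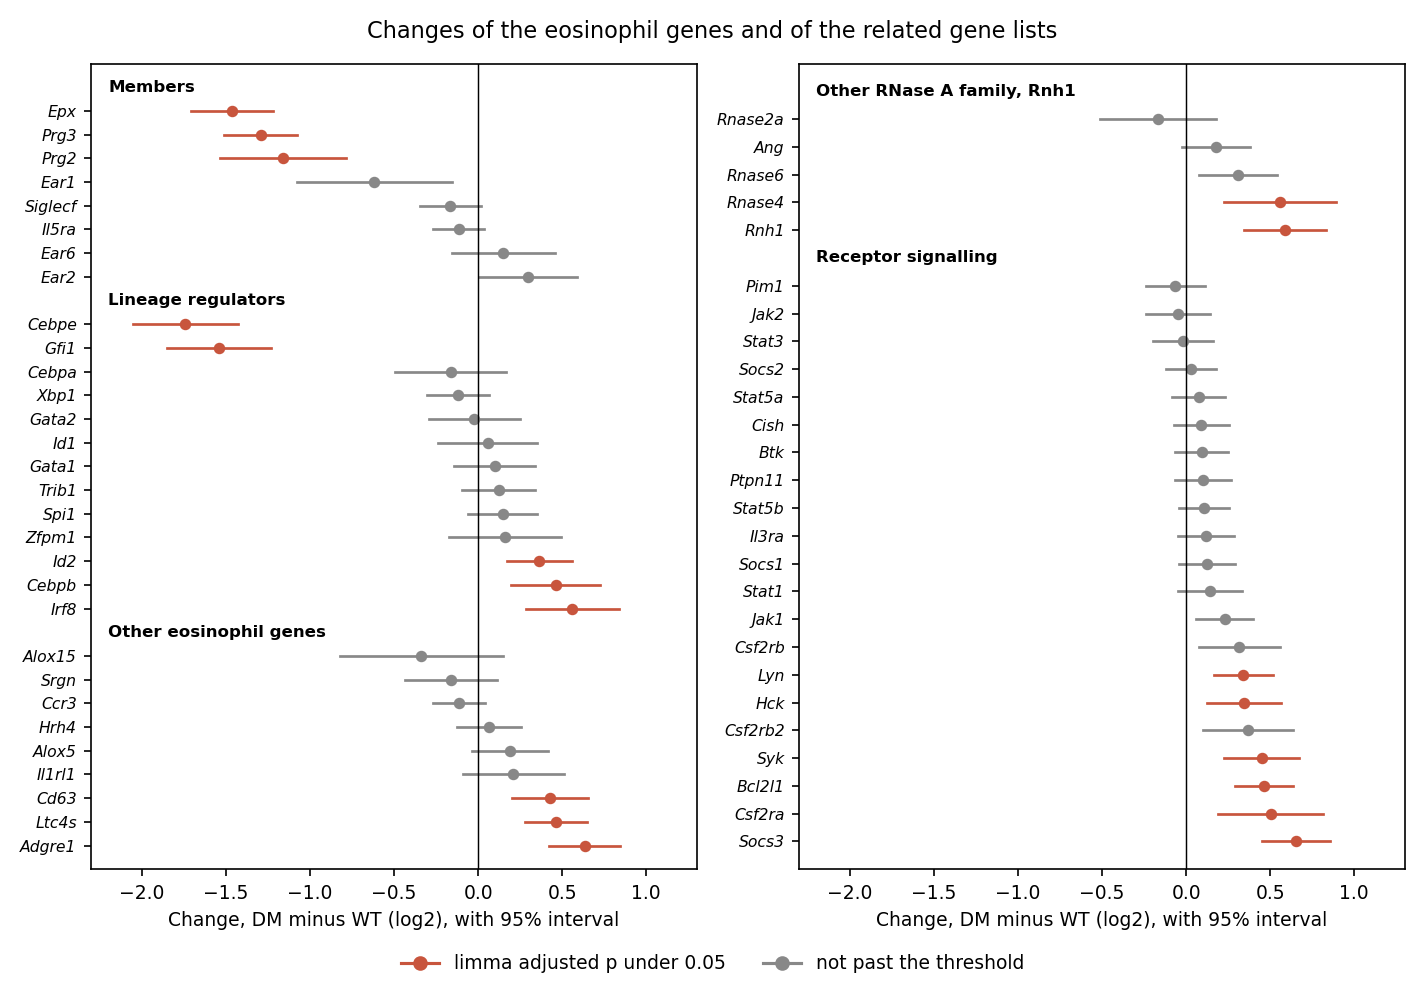
Change between DM and WT (log2, horizontal axis) with its 95% interval for each tested gene of the eosinophil members and of 4 related lists; red marks limma adjusted p under 0.05. Epx, Prg3 and Prg2 share the left of the plot with the regulators Cebpe (-1.74) and Gfi1 (-1.54), while the receptor signalling genes lie between -0.06 and 0.65.

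Genes with the pattern most like that of a granule gene were ranked by the root mean square difference of centred rlog values over the 6 libraries. Those closest to Epx were F13a1 (0.0893), which encodes coagulation factor XIII subunit A, Gatm (0.102), a creatine synthesis enzyme, Gca (0.112), which encodes the granulocyte protein grancalcin, Gfi1 (0.133) and Cldn15 (0.135). Prg3 came next at number 6 (0.139), Cebpe was number 19 (0.225), Prg2 number 26 (0.232) and Ear1 number 259 (0.488). Closest to Prg2 were Ccl24 (0.127), Prg3 (0.14), Ttc21a (0.182), Palm (0.197) and Fads2 (0.206). Ccl24 encodes a ligand of the eotaxin receptor, and its values were 7.12, 7.26 and 7.62 in WT, against 6.28, 5.92 and 6.47 in DM. These distances rest on libraries shared by all genes, and are descriptions.

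Marker genes of other cells moved with the granule genes in part. Their counts are to be read beside the 4.71% of all genes tested that were called lower and the 9.2% called higher. Of 15 neutrophil markers, 11 fell, none was called higher and 4 were not called. The means of 14 of the 15 were lower in DM. Mmp8 went the other way without passing the threshold (0.5, limma adjusted p 0.0521). Its DM values all lay above its WT values, as in 21.5% of all genes tested. The summed level of the neutrophil markers, as log2 relative to the mean over the libraries, was 0.3, 0.61 and 0.74 in WT, against -1, -0.49 and -0.18 in DM. The summed level of the 8 eosinophil genes was 0.41, 0.53 and 0.46 in WT, against -0.49, -0.66 and -0.26 in DM. Epx and Prg2, both already called, made up 78.7% to 82.1% of that sum in WT and 56.4% to 66.7% in DM. Without them, the sum of the other 6 genes was 0.07, 0.16 and -0.13 in WT, against -0.19, 0.03 and 0.05 in DM, and the groups overlapped; this sum was added after the data were seen. The lowest DM library was replicate 1 for the neutrophil markers and replicate 2 for the eosinophil genes, as summed levels. S100a9 (15.26 to 17.45) and S100a8 (15.2 to 16.93) had the largest values of the neutrophil list and weigh most in its sum. Gene by gene, 10 of the 15 neutrophil markers had their lowest DM value in replicate 1, and 5 in replicate 2 (Mpo, Elane, Prtn3, Ms4a3 and Ctsg). After Mpo, the largest falls were those of Elane (-3.96, limma adjusted p 0.000118), Prtn3 (-3.37, 0.000118) and Ms4a3 (-2.7, 0.000102). Of 9 basophil markers only Hdc was called, lower (-0.62, limma adjusted p 0.0457), and it lost the call in 8 of 14 alternatives, including without WT replicate 2 (-0.67, 0.0537), WT replicate 3 (-0.45, 0.104), DM replicate 2 (-0.43, 0.139) or DM replicate 3 (-0.67, 0.0938).

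Basophil sums were 0.1, -0.23 and -0.14 in WT, against 0.36, -0.02 and -0.07 in DM, and the groups overlapped. Cpa3, with the largest values of the list (17.6 to 18.26), weighs most in these sums and was not called (0.24, limma adjusted p 0.34). The means of 4 of the 9 markers were lower in DM. Among them were Mcpt8 (-0.54, 0.122) and Prss34 (-0.58, 0.0986), which were not called. Basophil and mast cells are related to eosinophils and can also carry Prg2. Of 9 mast cell markers, 3 rose, 5 were not called and Mrgprb2 was below the filter. Among the 3, Mcpt2 (0.99, limma adjusted p 0.0163) and Mitf (0.52, 0.00293) kept their calls in all 14 alternatives. Mcpt1 (1.32, 0.0491) lost its call in 10 of 14 alternatives, among them leaving out any 1 library other than DM replicate 3. It stood at 0.81 (adjusted p 0.0793) without DM replicate 2, and at 1.3 to 1.36 (0.0704 to 0.118) without any 1 WT library or DM replicate 1. The mast cell sums were 0.2, -0.12 and -0.27 in WT, against 0.31, -0.12 and -0.01 in DM. Tpsb2 had the largest values of that list (16.27 to 17.14). Monocyte and macrophage markers, of which 7 of 10 rose and 2 fell, had sums of -0.5, -0.03 and -0.72 in WT, against 0.26, 0.63 and 0.35 in DM. The 2 that fell were Ly6c2 (-1.135, limma adjusted p 0.0036) and Ccr2 (-0.78, 0.00975). Rises were largest for Ctss (0.96, 0.0115), Gpnmb (0.96, 0.012) and Cd68 (0.94, 0.00777). Lyz2, which rose by 0.86 (0.0176), had the largest values of the list (17.6 to 19) and weighs most in these sums. No marker in these lists was at 0 in all libraries. What part of the falls of Epx, Prg2 and Prg3 goes with these markers was not tested.

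**Figure D4:**
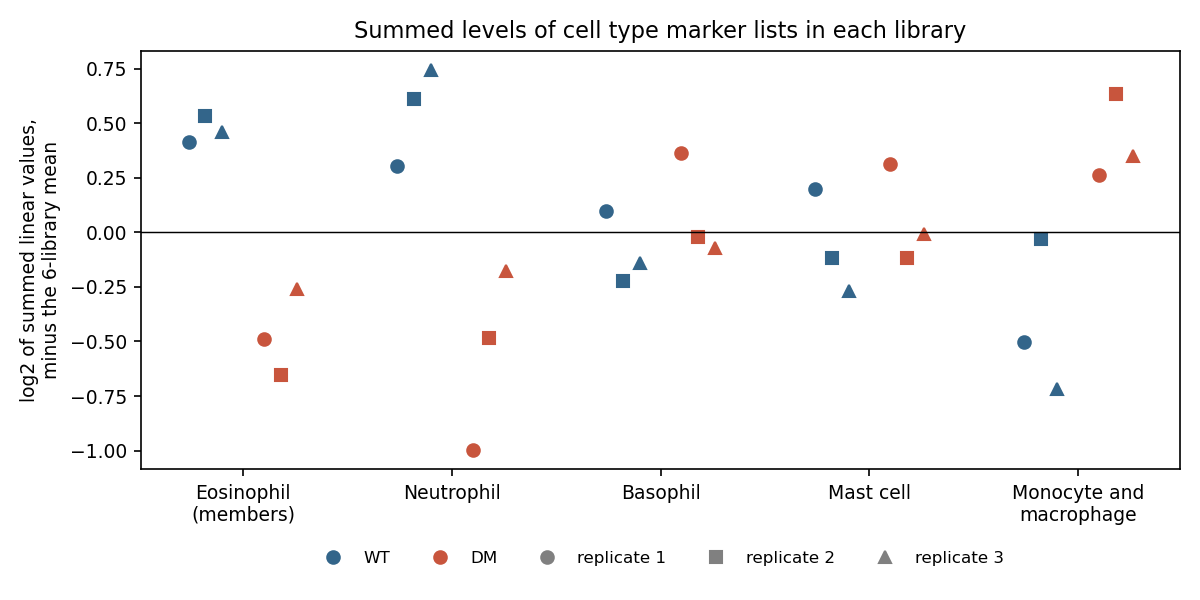
The log2 of summed linear values of each marker list, minus its mean over the 6 libraries (vertical axis), with symbols for the replicates of WT (blue) and DM (red). Eosinophil and neutrophil sums are lower in every DM library, and monocyte and macrophage sums are higher in every DM library. Basophil and mast cell sums overlap. Epx and Prg2 hold most of the eosinophil sum. S100a9 and S100a8 have the largest values of the neutrophil list, Cpa3 of the basophil list, Tpsb2 of the mast cell list and Lyz2 of the monocyte and macrophage list.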

How the data were processed

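The deposited table holds 1 rlog value on the log2 scale per gene and library; the transform is named by the label of the table, and the values are not whole and go below 0 for the lowest genes. The submitters' processing notes name cutadapt 2.6, STAR 2.7.3, DESeq2 1.30.0 and mm10, with no role or order; the counting tool, use of strand and annotation are not given in the sources used here. Identical repeats among 142699 lines were merged to 55487 genes, of which 54435 matched GENCODE M21. A count test had no counts to work on. DM was compared with WT by limma 3.58.1 (eBayes with a mean-variance trend, R 4.3.3) over 18766 genes whose mean reached 3, without covariates, with Benjamini-Hochberg adjustment and a threshold of 0.05. The fit was first tested on data with known answers.

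Members and lists were chosen with earlier results of these data known. Named genes were the members, up to 4 called genes per list by size of change (the largest where none was called), the 5 tested neighbours on each side of Epx and of Prg2 with Prg3, and the 5 genes nearest to Epx and to Prg2; other names were chosen after their values were seen. The planned protein comparison was not run, and coding sequences were compared instead, a choice made after the data were seen. Sequences were aligned with Biopython 1.88 and plots drawn with matplotlib 3.10.9. Alternatives were no filter, a mean of at least 5, no trend, robust eBayes, library weights, quantile normalization, centring on library medians, a block for the replicate number, and leaving out each library. A listed gene and a component of the culture medium are not reported here.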

Additional observations from a re-analysis of the deposited data

How the results depend on the processing

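The falls of Epx, Prg2 and Prg3 passed the limma threshold in all 14 alternatives, and Ear2, Ear6, Il5ra and Siglecf in none. Ear1 passed with a mean of at least 5 (-0.62, adjusted p 0.0473), library weights (-0.72, 0.019) and the replicate block (-0.62, 0.0358). It also passed without DM replicate 3 (-0.85, 0.0294), and ran from -0.85 to -0.34 with 1 library left out. The genes called were 2611, 4854 with library weights, 3742 with the replicate block, and 1119 (without DM replicate 2) to 3475 with 1 library left out, 1185 for WT replicate 1 and 1537 for DM replicate 3. The share of called genes that were lower was 33.9%, and 48.7% after quantile normalization. With 1 library left out, called genes ran from 1 to 2 for the RNase list, 2 to 7 for receptor signalling, 2 to 5 for lineage regulators and 0 to 3 for basophil markers. The 1 basophil call became 0 without the filter, without the trend, with robust eBayes or centred on medians, and 2 with the replicate block. The direction of 3 neighbours not called reversed: Gm11508 (0.0057 after quantile normalization), Gm1826 (-0.024 centred on medians, and -0.0057 to 0.026 with 1 library left out) and Slc43a3 (-0.049 to 0.042 with 1 library left out). The replicate block used the numbers in the labels. Deviations from the group means correlated at 0.49, 0.12 and 0.04 within numbers 1, 2 and 3. WT replicate 3 also correlated at 0.12 with DM replicate 2. The other pairs that held WT replicate 1 or DM replicate 1 were negative, from -0.34 to -0.16. The main test did not take the numbers to pair the samples, and an effect shared by replicate 1 of both groups was not tested. The cause of these changes was not tested, and rlog values without depth limit what can be said of low genes such as Il5ra, Ccr3 and Lpo.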
